A study of Homo sapiens with 18 samples.

Results

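Heat shock proteins are chaperones, proteins that hold or refold other proteins, and 10 of their genes were followed here in KMS11 cells with altered levels or forms of the histone methyltransferase MMSET (gene symbol NSD2). The members were HSPA6, HSPA1A, HSPA1B, HSPA8, DNAJB1, HSPH1, HSPB1, HSP90AA1, HSPD1 and HSF1, chosen by name from the 18665 gene symbols that have a probe on the array. The choice rested on a measured value: HSPA6 was low with the Y1118A form of MMSET and not with the F1177A form, and the others were added to see whether the heat shock genes as a family did the same. The HSPA6 values and the comparisons of F1177A and Y1118A with DSRed and with each other are therefore descriptions. The name cytosolic fits 8 of the 10 genes, since HSPD1 is the chaperonin of the mitochondrial matrix and HSF1 is a transcription factor.

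In a resting cell HSF1 is held inactive by chaperones. Unfolded proteins draw these chaperones away, HSF1 forms trimers, moves to the nucleus and binds heat shock elements, runs of inverted GAA and TTC units upstream of its targets. HSPA1A, HSPA1B, HSPA6 and DNAJB1 are classical strongly induced targets, and HSPA8 and HSP90AA1 are also abundant without stress. Plasma cells and myeloma cells make large amounts of immunoglobulin and depend on chaperones of the cytosol and of the endoplasmic reticulum.

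KMS11 is a human multiple myeloma line with the t(4;14) translocation, which raises MMSET expression. Each of 6 groups had 3 Illumina bead arrays, 18 in all. The first 2 groups came from cells that carry a doxycycline-inducible hairpin against the 5′ region of MMSET, without doxycycline (no DOX) or with it (+DOX). No group received doxycycline without this hairpin, so in +DOX the drug and the knock-down cannot be told apart. The other groups came from KMS11 cells that the labels call MMSET knock-outs, which received by retrovirus an empty vector (DSRed, the control), wild-type MMSET II, the F1177A mutant that the labels call active, or the Y1118A mutant that they call inactive. DSRed, MMSET II, F1177A and Y1118A thus share the knock-out that the labels name and the infection. How far the endogenous protein is lost was not tested. Doses, times, vector promoters and the number of clones are not stated in the labels. Nor do these say whether the 3 arrays of a group are separate cultures, so p-values measure the spread between arrays, which may be technical.

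To show what HSF1 can recognise at these genes, the 250 bases upstream of the annotated start are printed for the member chosen first, for a classical target and for both abundant chaperones. They are RefSeq sequences of build GRCh38.p14, written 5′ to 3′ on the gene's strand. Capitals mark the GAA and TTC units of a heat shock element pair, GAANNTTC or TTCNNGAA. The windows are chr1:161524290-161524539 (plus strand) for HSPA6, chr6:31827488-31827737 (plus strand) for HSPA1B, chr11:123062137-123062386 (minus strand) for HSPA8 and chr14:102087045-102087294 (minus strand) for HSP90AA1.
HSPA6: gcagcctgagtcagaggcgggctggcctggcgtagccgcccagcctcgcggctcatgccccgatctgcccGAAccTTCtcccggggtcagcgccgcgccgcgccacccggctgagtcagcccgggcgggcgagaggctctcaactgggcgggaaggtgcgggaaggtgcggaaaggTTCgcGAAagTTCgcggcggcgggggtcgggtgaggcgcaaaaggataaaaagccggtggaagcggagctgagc
HSPA1B: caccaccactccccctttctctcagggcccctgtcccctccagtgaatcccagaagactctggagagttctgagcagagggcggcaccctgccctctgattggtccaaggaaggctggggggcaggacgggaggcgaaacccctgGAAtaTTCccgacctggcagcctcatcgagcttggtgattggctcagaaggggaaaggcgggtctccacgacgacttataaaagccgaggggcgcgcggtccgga
HSPA8: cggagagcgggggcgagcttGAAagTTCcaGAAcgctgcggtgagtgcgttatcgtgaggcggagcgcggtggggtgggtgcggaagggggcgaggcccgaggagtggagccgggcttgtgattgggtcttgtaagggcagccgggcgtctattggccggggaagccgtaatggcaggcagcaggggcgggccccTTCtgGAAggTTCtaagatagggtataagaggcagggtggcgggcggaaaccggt
HSP90AA1: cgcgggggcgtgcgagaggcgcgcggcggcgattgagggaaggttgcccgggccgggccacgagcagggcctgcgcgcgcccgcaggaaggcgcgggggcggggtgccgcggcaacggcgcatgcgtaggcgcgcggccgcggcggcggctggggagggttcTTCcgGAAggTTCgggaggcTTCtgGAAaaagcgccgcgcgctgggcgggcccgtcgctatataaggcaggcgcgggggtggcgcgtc

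RefSeq windows were at hand for 9 of the 10 members, with 13 annotated starts among them. HSF1 was not matched. A heat shock element pair lay in 8 of these 13 windows, against 11.6% of all 35116 promoter windows of the same length. Each of the matched genes except HSPH1 had one. A run of 3 alternating units with 2 bases between neighbours, which contains a pair, lay in 4 of the 13 windows, those of HSPA6, HSPA8, HSP90AA1 and HSPD1, against 0.441% of all windows. In HSPA6 the run of 3 units began 74 bases upstream of the start and a further pair 180 bases upstream. Because GAANNTTC and TTCNNGAA are palindromes, and both runs of 3 were searched, each search covers both strands. HSPA1B had a single pair, 105 bases upstream. A match to these letters is not a measured binding site.

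The platform annotation assigned 17 probes to the 10 symbols. HSPA6, HSPA1A, HSPA1B, HSPH1, DNAJB1 and HSPB1 had a single probe each, HSPA8 and HSF1 had 2, HSP90AA1 had 3 and HSPD1 had 4. Of these 17 probes, 12 were kept because 3 or more of the 18 arrays had a detection p-value under 0.01. The only HSPA1A probe was detected on 0 arrays, with intensities between -6.5 and 2.4, so no value is given for that gene. HSPA1A and HSPA1B code for nearly the same protein from neighbouring, nearly identical genes, and whether the HSPA1B probe also reads HSPA1A RNA was not tested. HSPA6 has a close pseudogene, HSPA7, that could likewise contribute to its probe. Below, signal means the background-corrected, quantile-normalised log2 value of the gene's brightest probe, errors of levels are SD with n = 3, and errors of differences are SE of the limma model. Levels of different probes are not compared with each other.

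Array brightness differed between groups and bears on several members. The 95th percentile of intensity lay between 241.5 and 349.4 on the no DOX arrays and between 430.3 and 620.7 on the +DOX arrays. The F1177A arrays lay between 368.5 and 493.1, the MMSET II arrays between 621.9 and 889.5, and the Y1118A arrays between 746.5 and 775. DSRed replicate 3 stood apart at 1033, against 491.4 and 453.5 on the other DSRed arrays. NSD2 itself was lower with +DOX (-0.70, limma adjusted p = 0.000369) and differed from DSRed in no repletion group (adjusted p = 0.464 to 0.887). With DSRed it was detected on all 3 arrays, at 5.66 ± 0.03. Whether its probe lies within the retroviral constructs is not given, and the repletion labels are therefore not checked by it. Of 8 plasma cell markers, 7 were detected on at least 1 array of every group but MMSET II, where 6 were. On all 3 arrays of a group, 6 were detected with MMSET II and with F1177A, and 7 in each other group. CD38 was detected on no array, and SDC1 on no MMSET II array. The T cell markers CD3D, CD3E and CD2 were detected on no array. Of the fibroblast markers only PDGFRB was detected, on all 3 arrays of MMSET II, F1177A and Y1118A, on some DSRed arrays and on no hairpin array. Of the endothelial markers only PECAM1 was, on all arrays of both hairpin groups and on some of each repletion group. Of the myeloid markers only LYZ was, on some arrays of no DOX, DSRed and F1177A. Of the epithelial markers, EPCAM was detected on all 3 arrays of every group but DSRed, where it was detected on none, and KRT18 on all arrays of both hairpin groups and on no repletion array. The summed intensity of EPCAM, KRT8 and KRT18 was 7.5 to 16.4 on the DSRed arrays, 119.7 to 197.9 with MMSET II, 44 to 58 with F1177A and 34.7 to 36 with Y1118A; whether this has a part in the differences of the members was not tested.

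HSPA6, an inducible member of the HSP70 family that is nearly silent in unstressed cells, was bright with DSRed and with F1177A, dim with wild-type MMSET II, and at background with Y1118A. The background-subtracted intensities were 74.4, 89 and 166.2 on the DSRed arrays and 81.9, 67.8 and 66 with F1177A. With MMSET II they were 26.6, 34.7 and 26.4, and with Y1118A 8.1, 5.1 and 6. The hairpin arrays read 14, 8.7 and 7.8 without doxycycline and 3.8, 3.2 and 6.6 with it. DSRed and F1177A arrays overlapped, and every one of them lay above every other array. In bulk RNA, fewer cells that express a gene and less of its RNA per cell cannot be told apart. HSPA6 was detected on all 3 DSRed and all 3 F1177A arrays, on 2 MMSET II arrays, on 1 no DOX array, and on 0 arrays of +DOX and Y1118A.

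On the normalised scale HSPA6 was at 6.83 ± 0.06 with F1177A, 6.81 ± 0.19 with DSRed and 5.27 ± 0.16 with MMSET II. It was at 4.85 ± 0.25 with no DOX, 4.54 ± 0.05 with Y1118A and 4.50 ± 0.08 with +DOX. In that order, the F1177A and DSRed arrays overlapped, as did MMSET II with no DOX and Y1118A with +DOX, while DSRed and MMSET II were separate, as were no DOX and Y1118A. Y1118A was below DSRed by at least 3.0-fold and below F1177A by at least 3.03-fold. These are bounds because the probe was not detected with Y1118A, and they set the brighter group against the lowest detected signals of the dim arrays. The low HSPA6 signal was not particular to the Y1118A arrays: wild-type MMSET II was 1.54 below DSRed (SE 0.133, a 2.90-fold difference) and 1.55 below F1177A (2.93-fold). Between MMSET II and Y1118A the bound was at least 1.04-fold. F1177A and DSRed differed by 0.02 (SE 0.133), and the sign of this difference turned in 6 of the alternatives given in the closing part. No p is given for HSPA6, since the gene was picked for this pattern.

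**Figure D1:**
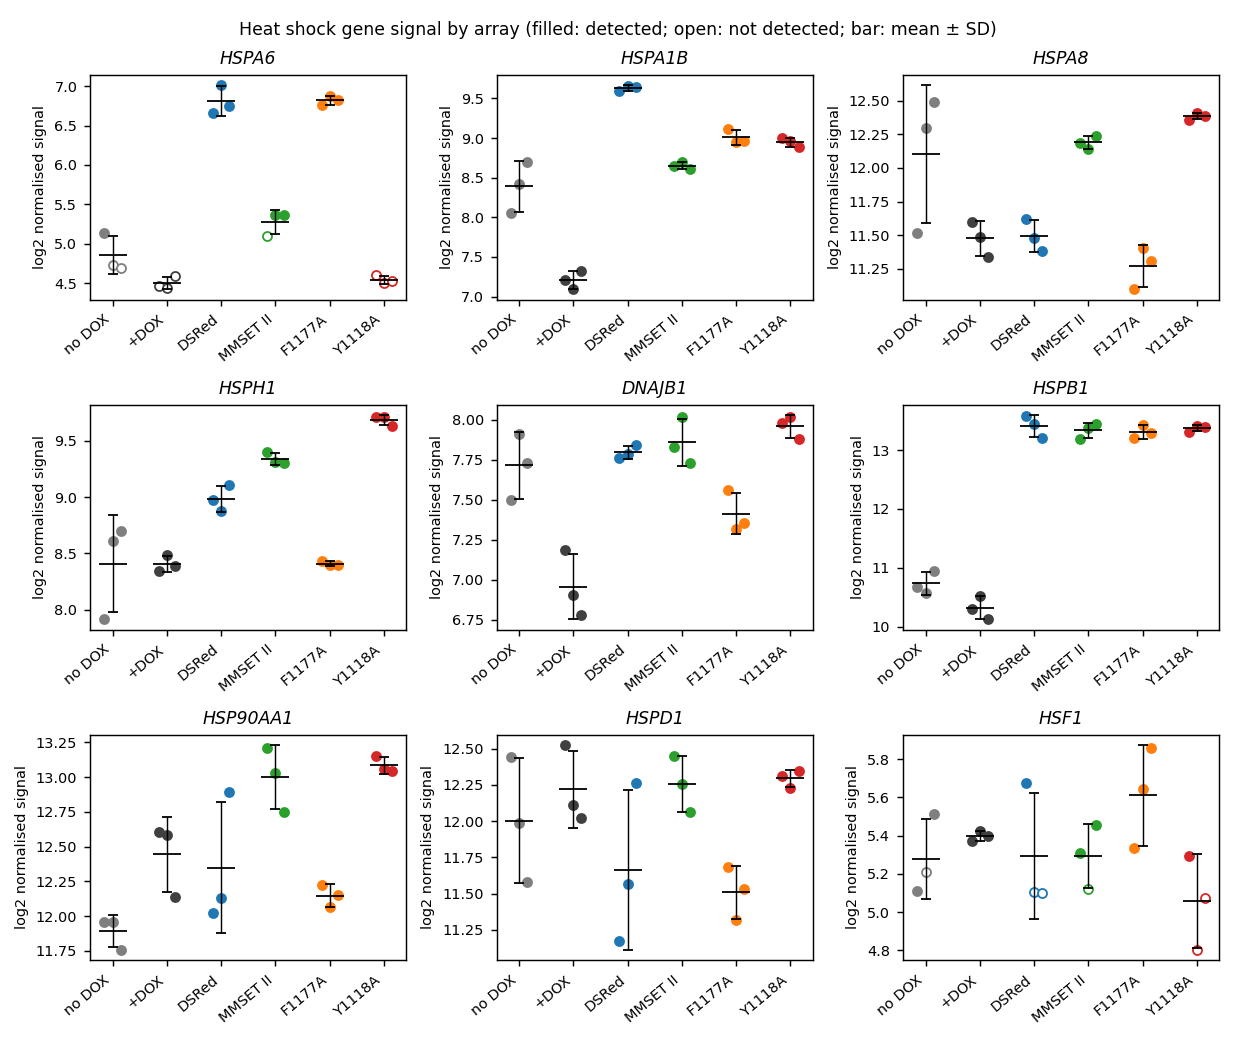
Each panel shows 1 heat shock gene, with the log2 normalised signal on the vertical axis (scales differ between panels) and the 6 groups along the horizontal axis. Points are arrays, filled where the probe was detected and open where it was not, and bars are the mean ± SD of 3 arrays. HSPA6 is at 6.81 and 6.83 in the DSRed and F1177A groups and at 5.27 or below in all others, a shape that none of the other panels repeats.

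HSPA1B, a stress-inducible HSP70, was highest with DSRed and below it with each MMSET construct, the active mutant included. Its signal was 9.59, 9.66 and 9.65 on the DSRed arrays, and the MMSET II arrays read 8.65, 8.70 and 8.61. The F1177A arrays read 9.11, 8.95 and 8.96, and the Y1118A arrays 9.0, 8.96 and 8.89. All DSRed arrays lay above all other arrays of the study. Wild-type MMSET II was 1.97-fold below DSRed (-0.98, SE 0.121, limma adjusted p = 4.31e-06). F1177A and Y1118A differed from DSRed by -0.62 and -0.69 (SE 0.121 each). F1177A, where HSPA6 was as bright as in DSRed, and Y1118A, where it was undetected, had overlapping HSPA1B signals (9.01 ± 0.09 and 8.95 ± 0.06, a difference of 0.06). Under median scaling, which aligns only the arrays' medians, the MMSET II difference from DSRed was -0.71 with no call (adjusted p = 0.0646).

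In the hairpin cells HSPA1B was 8.05, 8.42 and 8.70 without doxycycline and 7.21, 7.09 and 7.33 with it. The groups did not overlap, and +DOX was lower by 2.27-fold (-1.18, SE 0.121, limma adjusted p = 5.38e-07). HSPA1B therefore was lower both where MMSET II was added to knock-out cells and where doxycycline was given to hairpin cells. The interaction test took MMSET II minus DSRed in the repletion cells less no DOX minus +DOX in the hairpin cells. It gave -2.16 (SE 0.171, limma adjusted p = 1.90e-08). This test called 5 of the 8 members other than HSPA6, when 45.2% of all features were called. Under median scaling the +DOX difference was -0.51 with no call (adjusted p = 0.0998), when the median of all features lay at 0.486.

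HSPA8, the constitutive HSC70 that folds new proteins and uncoats clathrin vesicles, ran the other way from HSPA6 in the repletion cells. Its signal was 11.62, 11.48 and 11.38 with DSRed and 11.10, 11.40 and 11.30 with F1177A, against 12.19, 12.14 and 12.24 with MMSET II and 12.36, 12.41 and 12.39 with Y1118A. Every MMSET II and Y1118A array lay above every DSRed and F1177A array. MMSET II was above DSRed by 0.70 (SE 0.161, adjusted p = 0.00246, limma) and above F1177A by 0.92 (F1177A minus MMSET II -0.92, adjusted p = 0.000221). The second HSPA8 probe gave 0.73 and -1.14 for these comparisons. In the hairpin cells HSPA8 was lower with +DOX by 1.55-fold (-0.63, adjusted p = 0.00428), with a wide spread without doxycycline, where replicate 1 read 11.52 and the others 12.30 and 12.49. That call was absent under median scaling (-0.06, adjusted p = 0.853), with brightness as a covariate (-0.43, adjusted p = 0.0993) and when the hairpin arrays were modelled by themselves (adjusted p = 0.0579). The value under median scaling is -0.54 once the shift of the median feature is taken off.

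**Figure D2:**
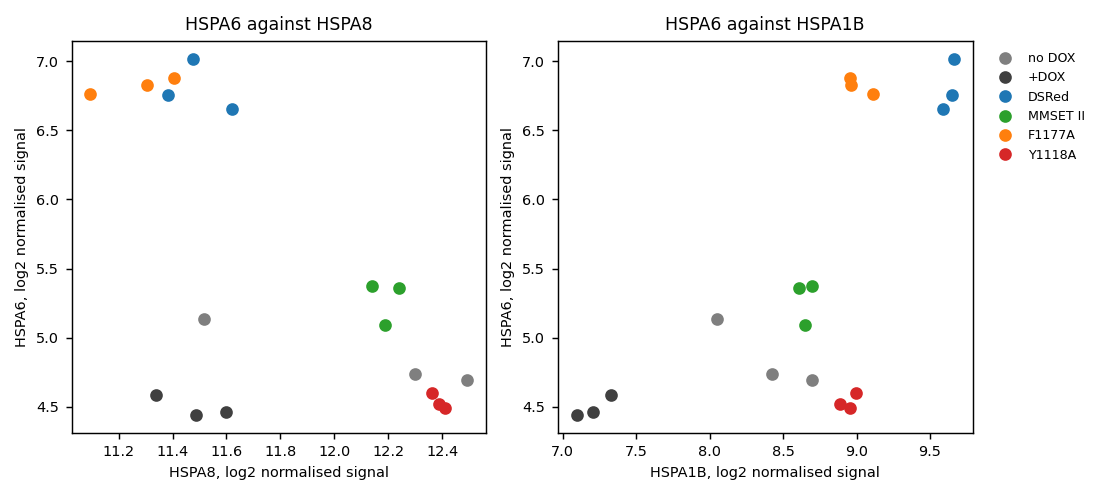
The log2 normalised signal of HSPA6 (vertical axes) is plotted against that of HSPA8 (left) and of HSPA1B (right), each point being 1 of the 18 arrays coloured by group. On the left the DSRed and F1177A arrays, high in HSPA6, are at 11.10 to 11.62 in HSPA8 and the MMSET II and Y1118A arrays at 12.14 to 12.41; on the right the F1177A and Y1118A arrays share HSPA1B levels at opposite ends of the HSPA6 range.

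HSPH1 (HSP110, a nucleotide exchange factor that recharges HSP70) followed the order of HSPA8. The DSRed arrays read 8.97, 8.88 and 9.11, the MMSET II arrays 9.40, 9.31 and 9.30, the F1177A arrays 8.43, 8.40 and 8.39, and the Y1118A arrays 9.71, 9.71 and 9.63. The 4 groups did not overlap, with Y1118A on top and F1177A at the bottom. F1177A was below MMSET II by 1.90-fold (-0.93, SE 0.140, adjusted p = 5.46e-05, limma). MMSET II was above DSRed by 0.35 and missed the threshold (adjusted p = 0.0615). It passed in a model of these groups alone (adjusted p = 0.0240) and without no DOX replicate 1 (adjusted p = 0.00139), no DOX replicate 3 (0.0376) or DSRed replicate 3 (0.0387). In the hairpin cells the groups had the same mean, 8.41, and no difference was called (adjusted p = 0.999). That equality depended on which no DOX arrays were included. Without no DOX replicate 1, +DOX was lower (-0.25, limma adjusted p = 0.0251), and without no DOX replicate 3 the difference was 0.15.

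DNAJB1 is the HSP40 partner that delivers clients to HSP70 and stimulates its ATPase. It was 7.80 ± 0.04 with DSRed, 7.86 ± 0.15 with MMSET II, 7.96 ± 0.07 with Y1118A and 7.41 ± 0.13 with F1177A. The F1177A arrays (7.56, 7.32 and 7.36) lay below all other repletion arrays. F1177A was 1.36-fold below MMSET II (-0.45, SE 0.123, adjusted p = 0.00795, limma), while MMSET II and DSRed differed by 0.06 (adjusted p = 0.734). With +DOX, DNAJB1 was lower by 1.69-fold (-0.76, adjusted p = 9.34e-05), at 7.18, 6.91 and 6.78 against 7.50, 7.91 and 7.73. Under median scaling this difference was -0.12 and not called (adjusted p = 0.731, limma), or -0.61 once the shift of the median feature is taken off.

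HSPB1 (HSP27, a small heat shock protein that holds unfolded clients) did not separate the repletion groups, whose 12 arrays all lay between 13.19 and 13.58. Its differences there ran from -0.10 to -0.04 against DSRed, and none was called. The 6 hairpin arrays lay between 10.13 and 10.95, so DSRed exceeded no DOX by 2.67 on the log2 scale. These systems differ in more than MMSET, and no test is given. Within the hairpin cells HSPB1 was lower with +DOX (-0.42, SE 0.114, adjusted p = 0.00688, limma), but under median scaling the value was 0.22 (adjusted p = 0.298), which is -0.271 once the shift of the median feature is taken off, and with brightness as a covariate -0.20 (adjusted p = 0.206).

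HSP90AA1, the stress-inducible cytosolic HSP90, read 13.21, 13.03 and 12.75 with MMSET II and 13.15, 13.06 and 13.04 with Y1118A. F1177A arrays were at 12.23, 12.06 and 12.15. The DSRed arrays were split, at 12.02, 12.13 and 12.89, the last being the bright replicate 3. F1177A lay below MMSET II without overlap (-0.85, SE 0.170, adjusted p = 0.000722, limma; -0.73 at the second probe). MMSET II was above DSRed by 0.65 (adjusted p = 0.00617), or by 0.92 without DSRed replicate 3 and 0.48 without DSRed replicate 1. This call was lost when these groups were modelled by themselves (adjusted p = 0.0530) and under median scaling (0.88, adjusted p = 0.0728), and the second probe gave 0.30 without a call (adjusted p = 0.0544). With +DOX it was higher by 0.55 (adjusted p = 0.0139), with 0.19 and no call at the second probe (adjusted p = 0.185). That call was also lost without no DOX replicate 3, without +DOX replicate 1 and without +DOX replicate 2 (adjusted p = 0.0568, 0.0688 and 0.0622). With brightness as a covariate the +DOX difference was 0.056 and not called (adjusted p = 0.733).

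HSPD1, the mitochondrial HSP60, was 11.17, 11.56 and 12.26 on the DSRed arrays, again highest on the bright replicate 3. MMSET II arrays read 12.45, 12.26 and 12.06, Y1118A arrays 12.31, 12.23 and 12.35, and F1177A arrays 11.68, 11.32 and 11.53. F1177A was below MMSET II (-0.75, SE 0.217, adjusted p = 0.0110, limma), without overlap, but the second probe gave -0.35 with no call (adjusted p = 0.127), and the call was lost without MMSET II replicate 1 or F1177A replicate 2 (adjusted p = 0.0556 and 0.0554). MMSET II minus DSRed was 0.59 (adjusted p = 0.0433), 0.89 without DSRed replicate 3, and 0.04 at the second probe (adjusted p = 0.890). Leaving out any 1 of 10 arrays ended that call (adjusted p = 0.0505 to 0.261), the lowest value being 0.34 without DSRed replicate 1. Both differences of HSPD1 therefore depended on the probe.

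HSF1, the regulator itself, was dim and measured near background, at 13.2 to 35.8 on the intensity scale, and was detected on 12 of 18 arrays. Its signal was 5.61 ± 0.26 with F1177A, 5.40 ± 0.03 with +DOX, 5.29 ± 0.33 with DSRed, 5.29 ± 0.17 with MMSET II, 5.28 ± 0.21 with no DOX and 5.06 ± 0.25 with Y1118A. Neighbouring groups in this order overlapped. No HSF1 difference was called in +DOX against no DOX, MMSET II against DSRed or F1177A against MMSET II (adjusted p = 0.612, 0.996 and 0.161). Activation of HSF1 works through the protein, which arrays do not see.

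**Figure D3:**
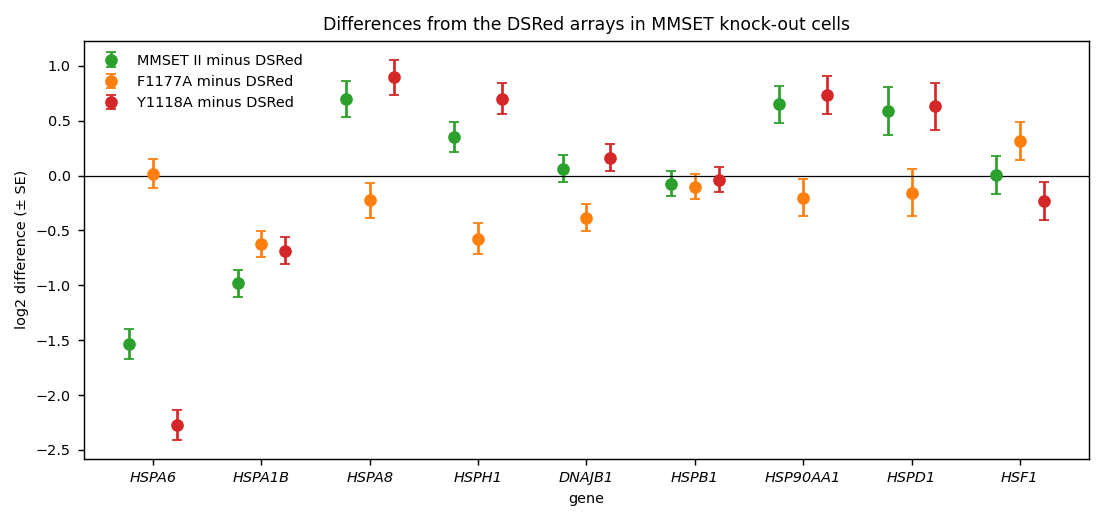
For each of the 9 measured heat shock genes, points give the log2 difference of the MMSET II, F1177A and Y1118A groups from the DSRed group, with bars of 1 SE from the limma model over all 18 arrays. The 3 comparisons share the DSRed arrays. HSPA8, HSPH1, HSP90AA1 and HSPD1 are above the zero line with MMSET II and Y1118A and below it with F1177A, HSPA1B is below it with all 3 constructs, and HSPA6 is below it with MMSET II and Y1118A.

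Counted over the 8 measured members other than HSPA6, the family did not move in 1 direction. MMSET II against DSRed called 4 of 8, when 32.8% of all 10954 features were called. HSPA8, HSP90AA1 and HSPD1 were higher (17% of all features) and HSPA1B was lower (15.8%), and 3 of 8 had groups without overlap (44.3%). The members' median difference was 0.21 and that of all features 0.00. F1177A against MMSET II called 6 of 8, against 38.8% of all features. HSPA1B was higher (0.36, adjusted p = 0.0259; 19.1% of all features), while HSPA8, HSPH1, DNAJB1, HSP90AA1 and HSPD1 were lower (19.7%), and 6 of 8 did not overlap (58%). The median was -0.60, against -0.01 over all features. The HSPA1B call was lost without MMSET II replicate 1, MMSET II replicate 3 or F1177A replicate 1 (limma adjusted p = 0.0678 to 0.0970) and with brightness as a covariate (0.28, adjusted p = 0.203). Under median scaling its sign turned (-0.41), though the value is 0.208 once the shift of the median feature is taken off. Same-numbered F1177A and MMSET II arrays deviated together from their group means, though the sample titles give numbers only and name no pairs. Replicate 1 was the brightest array of both groups, and whether brightness has a part in this was not tested. A model of these groups alone with the number as a block, an alternative chosen after seeing the data, called 7, adding HSF1 (0.32, adjusted p = 0.0463). That model called 6105 of all features, against 4251 in the model over all arrays.

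With +DOX 5 of 8 were called, against 41.3% of all features. HSP90AA1 was higher (21.2% of all features) and HSPA1B, HSPA8, DNAJB1 and HSPB1 were lower (20.1%), and 4 of 8 did not overlap (44.2%). The median was -0.21, against 0.01 over all features. In these 3 comparisons the count exceeds what the share over all features would give for 8 genes by fewer than 3 genes, and no test of the family as a whole is given.

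Between wild-type MMSET II and the inactive Y1118A, none of the 8 members was called by limma over all 18 arrays, against 18.5% of all features. At an unadjusted p under 0.05, 2 passed, HSPH1 (MMSET II minus Y1118A -0.35, adjusted p = 0.0954) and HSPA1B (-0.30, adjusted p = 0.0991). The share of all features passing that threshold is not given. When these groups were modelled by themselves, 3 were called, HSPA1B (adjusted p = 0.00448), HSPH1 (0.00114) and HSPA8 (-0.20, adjusted p = 0.0143). Without no DOX replicate 1, HSPA1B and HSPH1 were called (limma adjusted p = 0.0188 and 0.00271), when 2697 features were. Without no DOX replicate 3, HSPA1B was called (adjusted p = 0.0439). MMSET II arrays lay below Y1118A arrays without overlap for 3 of 8, HSPA1B, HSPA8 and HSPH1, when 48.2% of all features did not overlap.

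In the comparisons that the choice of genes used, the counts are given without reading anything from them. F1177A against DSRed called 3 of 8 (20.5% of all features), with none higher (11.7%) and HSPA1B (-0.62), HSPH1 (-0.58) and DNAJB1 (-0.38) lower (8.79%), and 3 of 8 did not overlap (37.6%). HSP90AA1 was not called at its brightest probe (-0.20), while its second probe was called lower (-0.44). The DNAJB1 call was lost without any 1 DSRed array, without F1177A replicate 2 or 3, with no filter on detection and with brightness as a covariate. Y1118A against DSRed called 5 of 8 (27.7% of all features). HSPA8 (0.89), HSP90AA1 (0.73), HSPH1 (0.70) and HSPD1 (0.63) were higher (15.3%) and HSPA1B (-0.69) lower (12.4%), and 5 of 8 did not overlap (43.9%). The HSPD1 call was lost without DSRed replicate 1 (0.38), DSRed replicate 2 or any 1 Y1118A array, with these groups modelled by themselves, under median scaling, with no filter on detection, and at its second probe (0.21). Under median scaling HSP90AA1 and HSPA1B also lost theirs. F1177A against Y1118A called 6 of 8 (36.7% of all features). HSF1 was higher (0.55; 17.8%) and HSPH1 (-1.27), HSPA8 (-1.12), HSP90AA1 (-0.94), HSPD1 (-0.78) and DNAJB1 (-0.55) lower (18.9%), and 6 of 8 did not overlap (61.3%). The HSF1 call was lost without F1177A replicate 2, F1177A replicate 3 or Y1118A replicate 2, under median scaling (0.23) and with brightness as a covariate (0.26). The covariate also ended the calls of DNAJB1 (-0.41), HSP90AA1 (-0.35) and HSPD1 (-0.019). Calls over all features went from 4020 to 1319 with it. These comparisons share the DSRed, F1177A or Y1118A arrays with those above.

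HSP90AA1, HSPH1 and HSPD1, which were high with MMSET II and Y1118A, also moved with array brightness, measured as the log2 of the 95th percentile of intensity. F1177A arrays were dimmer than MMSET II arrays (-0.878) and than Y1118A arrays (-0.894). Over the 18 arrays, which share 6 groups, HSP90AA1 had a Pearson r of 0.92 with that percentile, HSPH1 0.72, HSPD1 0.57, HSPB1 0.51, DNAJB1 0.38, HSPA1B 0.21, HSPA8 0.18 and HSF1 -0.46. With brightness as a covariate, the members called between F1177A and MMSET II went from 6 to 2, HSPA8 (-1.16, adjusted p = 0.000424) and HSPH1 (-0.95, adjusted p = 0.00114). Calls over all features fell as well, from 4251 to 2537, so a loss of calls was not particular to these members. In that model the HSPA6 difference was 1.5. For HSPD1 the value became 0.01 and for HSP90AA1 -0.27 (adjusted p = 0.977 and 0.0920). The part that brightness has in these members was not tested further.

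**Figure D4:**
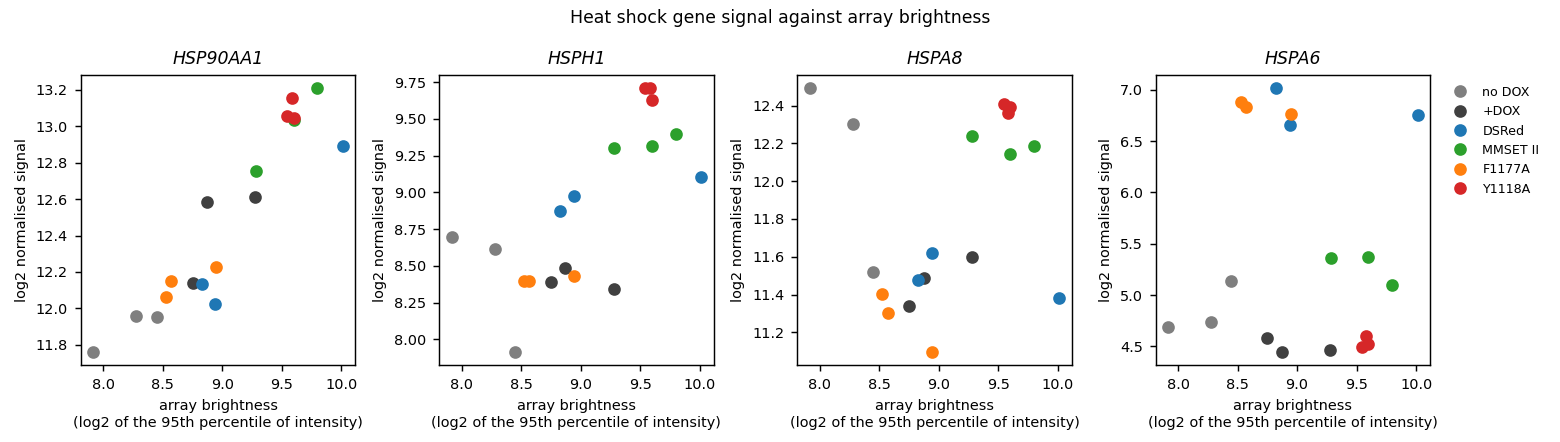
The log2 normalised signal of HSP90AA1, HSPH1, HSPA8 and HSPA6 (vertical axes) is plotted against array brightness, the log2 of each array's 95th percentile of intensity (horizontal axes), with 1 point for each of 18 arrays coloured by group. HSP90AA1 rises along brightness (r = 0.92), and in HSPA8 (r = 0.18) the bright DSRed replicate 3 stays with the other DSRed arrays.

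Among the other cytosolic chaperones and their helpers, 24 of 33 listed genes were measured. With +DOX 6 were higher and 7 lower, when 21.2% and 20.1% of all features were. BAG3, a co-chaperone that links HSP70 to autophagy and a classical HSF1 target, was lower (-1.60, SE 0.115, adjusted p = 6.70e-09, limma), at 5.90 ± 0.11 against 7.51 ± 0.18. The HSP90 immunophilin FKBP4 was lower (-1.10, adjusted p = 0.00128), as was CACYBP (-0.79, adjusted p = 0.000214), and the HSP90 co-chaperone p23, PTGES3, was higher (0.95, adjusted p = 0.0271). Under median scaling 11 were higher and 1 lower, BAG3 staying called; FKBP4 (-0.43, adjusted p = 0.0934) and CACYBP (-0.11, adjusted p = 0.686) were not. With brightness as a covariate PTGES3 was -0.07 (adjusted p = 0.784), and its call was also lost without no DOX replicate 3 (adjusted p = 0.103) and without +DOX replicate 1 (adjusted p = 0.114).

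With MMSET II against DSRed, 8 of the 24 were higher and 1 lower, when 17% and 15.8% of all features were. The HSP90 co-chaperone CHORDC1 (0.88, adjusted p = 0.000144, limma), the immunophilin FKBP5 (0.71, adjusted p = 0.00969) and HSPA4L, an HSP110-type exchange factor (0.69, adjusted p = 0.00322), were higher, and the HSP40 DNAJB2 lower (-0.69, adjusted p = 0.000400). DNAJB2 lost its call under median scaling (-0.45, adjusted p = 0.251). HSPA4L was higher still with Y1118A, at 7.41 ± 0.11 against 6.47 ± 0.22 with MMSET II, 6.24 ± 0.17 with F1177A and 5.78 ± 0.18 with DSRed. MMSET II minus Y1118A was -0.95 for this gene (adjusted p = 0.000437). BAG3, lower with +DOX, was 7.47 ± 0.19 with DSRed and 7.21 ± 0.04 with MMSET II.

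F1177A against MMSET II gave 1 higher and 11 lower of these 24, among them PTGES3 (-1.27, adjusted p = 0.00537, limma), DNAJC7 (-0.74, adjusted p = 0.000196) and HSPBP1 (-0.59, adjusted p = 0.00260). CHORDC1, undetected with F1177A, was at least 1.86-fold lower (adjusted p = 3.44e-05). Of the 8 subunits of TRiC, the cytosolic chaperonin that folds actin and tubulin, 7 were lower, CCT5 the most (-0.99, adjusted p = 4.15e-05). Over all features 19.1% were higher and 19.7% lower in this comparison. The median difference was -0.24 for the chaperones and -0.43 for TRiC, against -0.01 for all features. With brightness as a covariate 7 of the 24 and 4 of the 8 remained called lower, and the PTGES3 difference was -0.08 (adjusted p = 0.803). Calls over all features then went from 4251 to 2537. Under median scaling 21 of 24 and 8 of 8 were called lower. That scaling called 6543 of all features, 2.63% of them higher, and put the median of all features at -0.620.

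Of the heat shock factors, HSF4 was lower with MMSET II than with DSRed (-0.91, adjusted p = 8.21e-06, limma) and higher with F1177A than with MMSET II (0.92, adjusted p = 1.08e-05). Its levels were 6.48 ± 0.10 with DSRed, 6.49 ± 0.14 with F1177A, 5.56 ± 0.08 with MMSET II and 5.85 ± 0.16 with Y1118A, so the repletion groups split as for HSPA6, while no DOX, dim in HSPA6, was the highest for HSF4 at 6.93 ± 0.10. HSF4 also was lower with +DOX (-0.43, adjusted p = 0.00686), a difference that under median scaling was 0.12 (adjusted p = 0.652), and its F1177A difference from MMSET II was then 0.38 with no call (adjusted p = 0.108). HSBP1, a small protein that binds HSF1 trimers, was higher with +DOX (1.58, adjusted p = 3.04e-07) and with MMSET II against DSRed (0.64, adjusted p = 0.00322).

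Genes of other stress programs were counted from lists, to be read against the shares of all features called higher and lower, 21.2% and 20.1% with +DOX and 17% and 15.8% with MMSET II against DSRed. Among 12 chaperones of the mitochondria and the endoplasmic reticulum, 7 were lower and 1 higher with +DOX, and 4 were lower and 1 higher with MMSET II against DSRed. Under median scaling 0 of the 12 were lower in either comparison, with 2 higher with +DOX and 0 higher with MMSET II. Under that scaling 95.9% of 4769 called features were higher with +DOX, and 84.8% of 1444 with MMSET II against DSRed. Few of all features were thus called lower, so 0 of 12 lower is not particular to this list. SERPINH1, the collagen chaperone HSP47, was lower in both (-0.86, adjusted p = 1.70e-05, and -0.59, adjusted p = 0.000776; limma), calls that were among those lost. Of 7 measured immediate early genes, 5 were higher with +DOX and 0 lower, while 3 were lower with MMSET II against DSRed, ATF3 the most (-1.28, adjusted p = 0.00268), with no call for any of the 3 under median scaling. Of 10 measured metal and oxidative stress genes 6 were higher and 2 lower with +DOX, and 5 higher and 0 lower with MMSET II against DSRed, the higher ones in both including NQO1, a quinone reductase (1.41, adjusted p = 6.03e-07, and 1.12, adjusted p = 8.27e-06).

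The genes whose signal over the 18 arrays was most like that of HSPA6 were not heat shock genes. By Pearson r they were HNRNPA1, an RNA-binding splicing factor (0.92), ALDOC, a glycolytic aldolase (0.91), MNT, a MAX-binding repressor (0.91), ARHGAP30, a GTPase-activating protein (0.90), and TMEM186, a mitochondrial membrane protein (0.90). ALDOC, for example, had group means of 10.12 with DSRed, 10.40 with F1177A, 9.44 with MMSET II, 8.30 with Y1118A, 8.68 with no DOX and 7.41 with +DOX. Among the members, HSPA1B had the highest r with HSPA6 (0.68), then HSPB1 (0.56), HSF1 (0.35) and DNAJB1 (0.07), while HSPH1 (-0.21), HSP90AA1 (-0.33), HSPA8 (-0.62) and HSPD1 (-0.67) were negative. All points share the 6 groups, so these values mainly describe group means.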

How the data were processed

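RNA of 18 KMS11 samples was biotin-labelled and hybridised to Illumina bead arrays, per the labels' protocols. For each probe and array the authors deposited an intensity, non-normalized per the file headers, with a detection p-value. Since 31.1% of the intensities lie below 0, some background was already subtracted, by a method that no source used here states. The submitters' processing notes name GenomeStudio 1.5.4. The authors' series matrix holds further deposited intensity values, used only as an alternative. Gene names came from the platform annotation, which gave 1 symbol for 27578 of 48803 probes, several for 13 and none for 21212, with 0 symbols updated.

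Here, intensities were background-corrected (neqc of limma 3.58.1, R 4.3.3, offset 16), quantile-normalised and put on the log2 scale, where the offset understates differences of dim genes. Probes with a detection p-value under 0.01 on at least 3 arrays were kept (13336). The brightest probe stood for a symbol, giving 10954 features, 8947 of them named. Limma fitted 1 coefficient per group over all 18 arrays (12 residual degrees of freedom, moderated variances with trend). P-values were two-sided, adjusted by Benjamini-Hochberg over all features within each of 8 comparisons, and called at an adjusted p under 0.05. The procedure was tested on simulated data. A bound is the mean of the brighter group against, per array, the probe's own value or the lowest signal detected on that array, whichever is higher. The number of arrays limits the precision.

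Samples were grouped by their labels. Same-numbered F1177A and MMSET II arrays deviated together from their group means (correlations of 0.275, 0.168 and 0.219). Their numbers were therefore treated as pairs in an alternative, though the sample titles name no pairs. In every other comparison at least 1 correlation was not over 0.1. No 2 arrays held identical intensities. The members, lists and alternatives were chosen with earlier results of these data known. Named are all members, list genes with the largest called differences, and the 5 genes most like HSPA6.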

Additional observations from a re-analysis of the deposited data

Results flagged for a closer look

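The effect of MMSET II in the repletion cells (MMSET II minus DSRed) was compared with the hairpin effect (no DOX minus +DOX). The hairpin effect also holds that of doxycycline itself. The difference between these effects was tested in the limma model over all 18 arrays. It was called for 5 of the 8 members tested, when 45.2% of all features were called. HSPA1B differed the most, at -2.16 (SE 0.171, adjusted p = 1.90e-08), from effects of -0.98 and 1.18. For HSP90AA1 the difference was 1.20 (adjusted p = 0.000519), from 0.65 and -0.55, and the second HSP90AA1 probe gave 0.49 (adjusted p = 0.0191). DNAJB1 gave -0.69 (adjusted p = 0.00331), from 0.06 and 0.76. HSPD1 gave 0.81 (adjusted p = 0.0390), from 0.59 and -0.22, with -0.06 and no call at its second probe (adjusted p = 0.873). Its call was lost without any 1 of 7 arrays (adjusted p = 0.0605 to 0.126). HSPB1 gave -0.49 (adjusted p = 0.0182), from -0.08 and 0.42. That call was lost without no DOX replicate 3, +DOX replicate 3, DSRed replicate 1 or MMSET II replicate 1 (adjusted p = 0.0555 to 0.0598) and with brightness as a covariate (-0.19, adjusted p = 0.387). The systems differ in more than MMSET, including array brightness, so that which of these differences sets the values cannot be told apart.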

How the results depend on the processing

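Results were recomputed with another background offset, scaling, probe rule, detection filter or model, with the series matrix, and without each array in turn; where a value changed, the cause was not tested. Of the 8 members other than HSPA6, median scaling called 1 with +DOX (5 as reported), 1 with MMSET II against DSRed (4), 5 with F1177A against DSRed (3) and 2 with Y1118A against DSRed (5). Brightness as a covariate called 3 with +DOX, 2 between F1177A and Y1118A (6), 2 between F1177A and MMSET II (6) and 3 in the interaction (5). Of all features it called 3201 (4526 as reported), 1319 (4020), 2537 (4251) and 3680 (4955) in these. Modelling the compared groups alone called 3 members between MMSET II and Y1118A (0), when 4074 features were called (2025). Without 1 array, the counts of members were 0 to 2 for MMSET II against Y1118A and 3 to 5 for the interaction. The 3 arose without DSRed replicate 1 or MMSET II replicate 1. Features called were then 1343 to 2697 for MMSET II against Y1118A and 4188 to 5651 for the interaction. Signs turned under median scaling for HSPB1 with +DOX (0.22), for HSPA1B in F1177A minus Y1118A (-0.73) and minus MMSET II (-0.41), and for DNAJB1 (0.18) and HSPB1 (0.21) in the interaction. With brightness as a covariate they turned for HSPD1 with +DOX (-0.43, adjusted p = 0.0208), F1177A minus MMSET II (0.0070) and the interaction (-0.095). HSPA6 in F1177A minus DSRed was -0.40 under median scaling, -0.14 under cyclic loess, -0.021 with the covariate and -0.061 to 0.12 without 1 array. Median scaling put the median feature at 0.486 with +DOX, 0.212, -0.413 and 0.214 for MMSET II, F1177A and Y1118A against DSRed, -0.618 for F1177A minus Y1118A, -0.620 for F1177A minus MMSET II and 0.721 in the interaction. It moved the share of called features that were higher from 51.3% to 95.9% with +DOX, from 51.9% to 84.8%, 57.2% to 18% and 55.3% to 88.2% for MMSET II, F1177A and Y1118A against DSRed, 49.5% to 67.9% for MMSET II against Y1118A, 48.5% to 3.91% for F1177A against Y1118A, 49.2% to 2.63% for F1177A against MMSET II and 52.5% to 95.9% in the interaction. Called features went from 4526 to 2828 with +DOX (groups alone), from 3594 to 1444 with MMSET II against DSRed (median scaling), from 3038 to 831 with Y1118A against DSRed (median scaling; 1893, 1916 and 2015 without DSRed replicate 1, DSRed replicate 2 and Y1118A replicate 3), and from 2025 to 560 (median scaling), 4074 (groups alone) and 1343 (without Y1118A replicate 1) for MMSET II against Y1118A. They went from 4020 to 6835 (median scaling), 6123 (groups alone) and 1319 (covariate) for F1177A against Y1118A, and from 4251 to 6543 (median scaling) and 2537 (covariate) for F1177A against MMSET II. The replicate number as a block left 6 members called between F1177A and MMSET II, ended the HSPD1 call in MMSET II minus DSRed (limma adjusted p = 0.0509, leaving 3) and changed no other member call over all 18 arrays. It called 4090 and 3434 features in these comparisons (4251 and 3594 as reported). HSPA6 and HSF1 lie near background, which limits them: with an offset of 50 HSPA6 was -1.01 with MMSET II and -1.35 with Y1118A against DSRed.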
